A study of Mus musculus with 12 samples.

Results

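The 50 genes described here are collagens, other proteins of the stromal extracellular matrix, the enzymes that assemble, cross-link or cut them, inhibitors of those enzymes, and markers of the mesenchymal cells that produce matrix. They were chosen by name, and all 50 had at least 1 probe on the array. Of these, 48 passed the filter on dim probes (well above background on 3 or more of 12 arrays) and stand among 15544 tested features. Mmp12 and Mmp13, which encode macrophage elastase and a collagenase, passed on only 2 arrays each and were not tested.

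RNA came from regulatory T cells (Treg), CD4 T cells that restrain immune responses, sorted from MC38 tumours or spleens of C57BL/6 mice. MC38, a colon carcinoma line of the mouse, was grown under the skin of syngeneic mice and taken at 2 weeks, with tumours pooled before digestion. IL10+ and IL10- tumour Treg came from VERT-X mice, whose EGFP reports interleukin-10. Total tumour Treg came from FoxP3-EGFP mice with tumours, and spleen Treg from FoxP3-EGFP mice without tumours. Every sort took CD45+, CD11b-low, CD3+CD4+ cells; Treg were then gated on EGFP in FoxP3-EGFP mice and on CD25 and CD120b (positive or low) in VERT-X mice. Each of the 4 groups had 3 arrays, and the series design gives 3 experiments for a population without saying whether equal replicate numbers share one. The reporter strain and the Treg gate therefore change together between the VERT-X and FoxP3-EGFP groups, and tumour and spleen Treg also differ in whether the mouse carried a tumour.

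Fibrillar collagens form the tensile fibres of connective tissue, collagen IV and laminins form basement membranes, and small proteoglycans and glycoproteins such as decorin and fibronectin organise the fibres and bind cells. Fibroblasts and pericytes are the main producers of this matrix in tumours, and matrix metalloproteinases and their inhibitors (TIMPs) remodel it.

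A level below is log2 of a probe's background-subtracted signal minus the 75th percentile of that array, so 0 is the brightness of the 75th percentile probe. Differences are between group means of these levels, given with their standard error (SE), and levels of different genes are not set against each other because probes differ in brightness. Genes were called at a Benjamini-Hochberg adjusted p under 0.05 in limma, fitted over all features and all 12 arrays. In such bulk samples, fewer cells of a type and less RNA per cell cannot be told apart.

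Between 42.2% and 65.4% of probes were well above background per array, and the 75th percentile of the signal ranged from 92.3 to 606. The T cell identity of the sorts was read from 12 markers, whose summed level (log2) was 9.10 to 9.40 in spleen and 9.16 to 10.09 over the 9 tumour arrays. Foxp3, the defining transcription factor of Treg, was well above background on all 6 VERT-X arrays, with levels from 2.64 to 4.65, but on 0 of the 6 arrays from FoxP3-EGFP mice, with levels from -6.53 to -5.77. Its single probe therefore does not show Foxp3 in the libraries labelled total tumour Treg and spleen Treg, whereas Ctla4, a checkpoint receptor abundant in Treg, was well above background on all 12 arrays. Spleen replicate 2 stood apart: Il2ra, which encodes CD25, was not well above background there at -3.90, against 0.72 and 1.27 on the other spleen arrays, and Ctla4 was at -0.89 against 3.12 and 3.29. The count of called genes, and the differences of called genes that were well above background on that spleen array alone, are given with and without it. Cd3e, a chain of the T cell receptor complex, was at 2.08 and 1.73 on replicate 1 of the IL10- and IL10+ groups and between 4.80 and 5.87 on the other VERT-X arrays.

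Matrix genes were higher in Treg sorted from tumours than in Treg from spleen across nearly every class of the list. Of the 48 tested genes, 38 were called higher in total tumour than in spleen Treg and 0 lower, where 22.0% of all tested features were called higher and 20.3% lower. The median log2 difference of the 48 was 5.04, against -0.01 over all features. On 41 of the 48 every total tumour array lay above every spleen array, which 32.4% of all features did. Of the 48 genes, 18 were well above background on no spleen array and so entered the test through the tumour arrays alone, where they were bound to be the higher; 16 of the 38 called genes are of this kind. For any gene undetected in a whole group, here or below, the adjusted p rests on background signal there. It is printed as description and lends no support. Of the 30 genes detected on at least 1 spleen array, 22 were called higher. With the 18 undetected genes held at the smallest fold that the detection limit allows, the median difference was 3.74. Without spleen replicate 2 the count was 36 and the median 5.26. With normexp background correction, which lifts dim signals, the count was 33 and the median 2.28. The features called higher over the whole array were 3417 in the main fit, 2921 without spleen replicate 2 and 1050 with normexp.

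**Figure D1:**
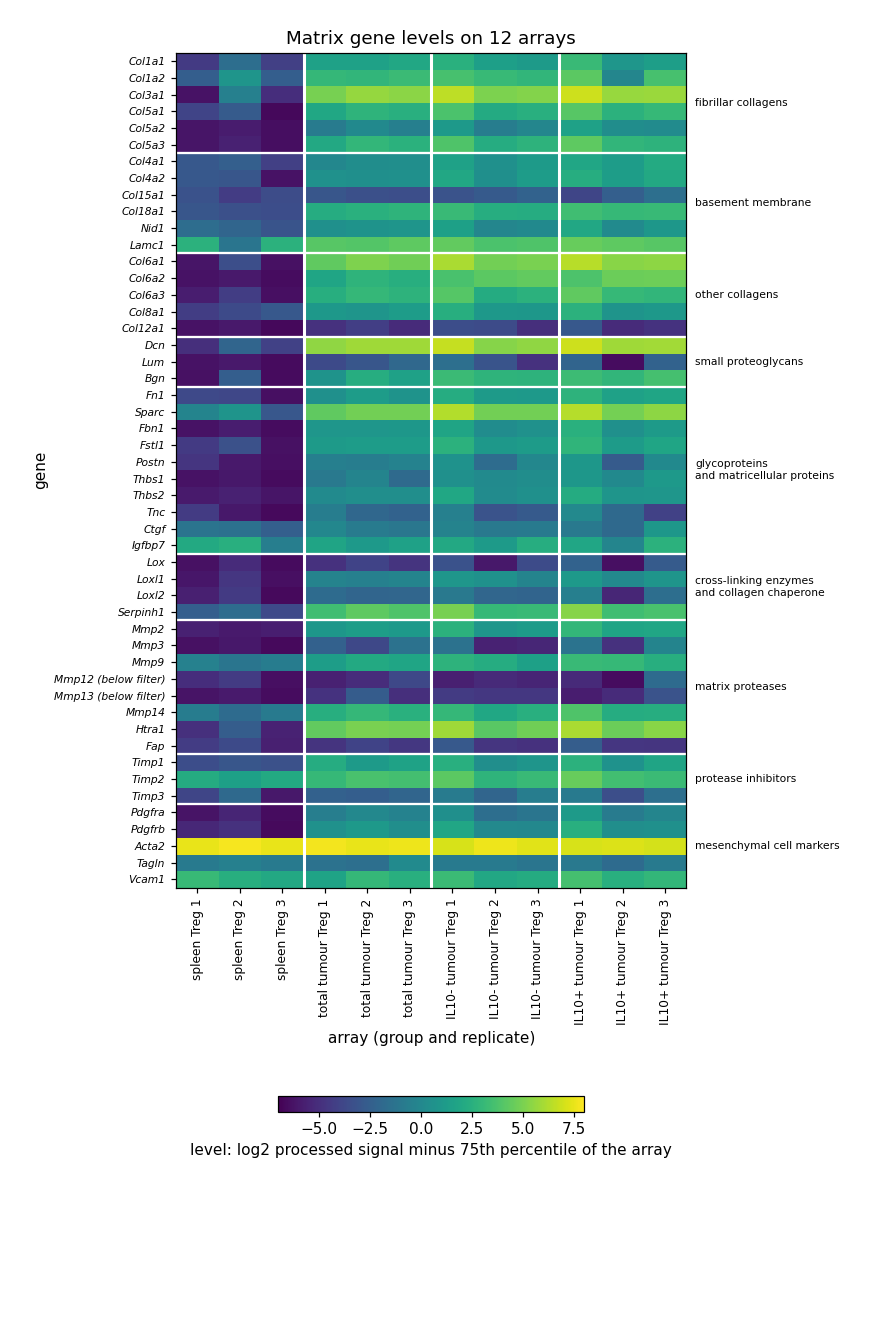
Level (log2 signal minus the 75th percentile of the array, colour) of the 50 matrix genes, in rows grouped by role, on the 12 arrays in columns. Most rows are dark on the 3 spleen arrays and lighter on the 9 tumour arrays, while the Acta2 row has nearly 1 colour throughout; colours compare arrays within a row, not rows with each other.

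The fibrillar collagens all rose, 6 of 6 called (22.0% of all features were called higher), with 2 of the 6 undetected on all spleen arrays. Their median difference was 5.84 when undetected genes are held at their bound. Col1a1 and Col1a2 encode the chains of collagen I, the main collagen of fibrous stroma, and Col3a1 encodes the collagen III that accompanies it. Col1a1 stood at 1.60, 1.56 and 1.98 on the total tumour arrays, at -4.45, -1.59 and -4.15 on the spleen arrays, at 2.54, 1.45 and 1.19 in IL10- and at 3.19, 0.89 and 1.42 in IL10+ Treg. All tumour arrays lay above all spleen arrays, and among the spleen arrays only replicate 2 was well above background. The difference between total tumour and spleen was 5.11 ± 0.78 (SE, 3 arrays a group; limma adjusted p = 0.000671) and 6.01 without spleen replicate 2. Col1a2 read 2.995, 2.90 and 3.23 in total tumour, -2.54, 0.80 and -2.54 in spleen, 3.63, 3.08 and 2.86 in IL10- and 4.20, -0.14 and 3.62 in IL10+ Treg. Here IL10+ replicate 2 fell below spleen replicate 2, so that the IL10+ group overlaps the spleen while total tumour does not. Its rise in total tumour was 4.47 ± 1.13 (limma adjusted p = 0.0104) and 5.58 without spleen replicate 2.

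Col3a1 had the largest fitted difference of the fibrillar class. It read 4.93, 5.65 and 5.42 in total tumour, 6.49, 5.05 and 5.25 in IL10- and 6.88, 5.71 and 5.77 in IL10+ Treg. In spleen it read -6.26, -0.48 and -5.01. No tumour array came near any spleen array, and spleen replicate 2 was the only spleen array well above background. The difference was 9.25 ± 1.19 (limma adjusted p = 0.000235) and 10.97 without that array. Col5a1, Col5a2 and Col5a3 encode collagen V, which sits inside collagen I fibres and sets their thickness. Col5a1 rose by 6.82 ± 0.87 (limma adjusted p = 0.000226), or by 7.68 without spleen replicate 2. Col5a2 and Col5a3 were undetected on all spleen arrays, and total tumour Treg exceeded the detection limit by at least 12.6-fold and at least 95.3-fold (limma adjusted p = 1.70e-05 and 2.82e-06).

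The promoters of Col1a2 and Col3a1 are shown as examples of fibrillar collagen genes that were called higher. RefSeq (GRCm38.p6) gave promoters for 32 of the 50 genes. Printed are the 200 bases before the annotated start, 5′ to 3′ along the gene, both on the plus strand: chr6:4505418-4505617 for Col1a2 and chr1:45311338-45311537 for Col3a1. Capitals mark a CCAAT box in Col1a2, which starts 109 bases before the annotated start, and a TATAAA in Col3a1, which starts 117 bases before it.
Col1a2: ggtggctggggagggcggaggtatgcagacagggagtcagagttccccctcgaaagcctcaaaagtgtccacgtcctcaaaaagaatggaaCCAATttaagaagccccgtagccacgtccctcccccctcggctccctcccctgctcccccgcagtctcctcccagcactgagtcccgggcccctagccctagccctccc
Col3a1: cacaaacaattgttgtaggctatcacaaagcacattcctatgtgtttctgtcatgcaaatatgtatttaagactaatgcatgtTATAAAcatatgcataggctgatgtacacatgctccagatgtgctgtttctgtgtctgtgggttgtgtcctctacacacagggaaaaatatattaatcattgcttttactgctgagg
A CCAAT on either strand was present in the 250 bases before the start of 11 of the 32 genes (34.4%) and in 37.5% of the 27025 genes of the table. TATAAA on either strand was present in 6 of the 32 (18.8%) and in 14.3% of all genes. These matches describe letters and not bound sites.

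Basement membrane genes rose in 5 of 6 cases (22.0% of all features), with a median difference of 3.18. Col4a1 and Col4a2 encode the main chains of collagen IV, and their RefSeq starts lie 21 bases apart on opposite strands of chromosome 8. Col4a1 read -0.08, 0.34 and 0.43 in total tumour and -2.86, -2.47 and -4.19 in spleen Treg, each well above background. It read 1.56, 0.54 and 1.18 in IL10- and 1.89, 1.32 and 2.15 in IL10+ Treg. The groups of tumour and spleen arrays were apart, and the rise in total tumour was 3.40 ± 0.43 (limma adjusted p = 0.000226). Col4a2 rose by 4.58 ± 0.79 (limma adjusted p = 0.00133).

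Col18a1, the basement membrane collagen from which endostatin is cut, had the smallest SE of this class between total tumour and spleen. It read 2.28, 2.55 and 2.77 in total tumour, 3.14, 2.33 and 2.31 in IL10-, 3.39, 3.07 and 3.08 in IL10+ and -2.99, -3.33 and -3.45 in spleen Treg. It was well above background on all 12 arrays, and the difference of 5.79 ± 0.25 between total tumour and spleen (limma adjusted p = 6.61e-07) did not depend on spleen replicate 2 (5.75 without it). Nid1 (nidogen, which links laminin to collagen IV) rose by 2.96 ± 0.55 (limma adjusted p = 0.00205). Lamc1, a laminin chain, rose by 2.73 ± 0.82 (limma adjusted p = 0.0231). Its spleen arrays read 2.66, -1.14 and 2.63, so replicate 2 is low where it is high for most matrix genes, and without it the rise was 1.47 (limma adjusted p = 0.0011). The call for Lamc1 was lost without any 1 of the total tumour arrays (limma adjusted p from 0.0546 to 0.0637), with normexp (0.152), with slide as a block (0.179) and with only the groups compared (0.0724). Col15a1 was not called (difference 0.44, 95% interval -0.71 to 1.60).

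Col6a1, Col6a2 and Col6a3 encode collagen VI, a beaded-filament collagen of the pericellular matrix, and all were called higher. Col6a1, with the largest fitted difference of the 48 genes, read 4.35, 5.09 and 4.73 in total tumour, 6.08, 4.81 and 5.01 in IL10- and 6.39, 5.31 and 5.42 in IL10+ Treg. In spleen it read -6.13, -3.42 and -6.34, with replicate 2 alone well above background. The difference was 10.02 ± 0.70 (limma adjusted p = 6.83e-06) and 10.96 without that array. Col6a2 read 1.82, 2.73 and 2.40 in total tumour, 3.68, 4.23 and 4.39 in IL10- and 3.83, 4.64 and 4.70 in IL10+ Treg. It was undetected on all spleen arrays (-6.25, -5.98 and -6.52), and total tumour exceeded the detection limit by at least 82.5-fold (limma adjusted p = 4.49e-07). All 6 VERT-X arrays lay above all 3 total tumour arrays. Col6a3 was likewise undetected in spleen and at least 108-fold higher in total tumour (limma adjusted p = 1.11e-05).

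Among the remaining collagens, Col8a1, a short-chain collagen of vessel walls, rose by 4.64 ± 0.56 (limma adjusted p = 0.000162). Col12a1, a collagen on the surface of collagen I fibres, was dim throughout: -4.88, -4.23 and -5.15 in total tumour, -3.48, -3.58 and -5.00 in IL10-, -2.87, -5.18 and -4.82 in IL10+ and -6.27, -6.00 and -6.65 in spleen Treg. It was well above background on 4 tumour arrays and no spleen array, and was not called in total tumour (limma adjusted p = 0.0598). No fold is given for it there, since the total tumour mean lies under the detection limit.

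The small leucine-rich proteoglycans, which coat collagen fibres, were all called higher, 3 of 3 (22.0% of all features). Dcn (decorin) read 5.53, 5.86 and 5.88 in total tumour, 6.71, 5.30 and 5.49 in IL10- and 6.87, 5.83 and 5.94 in IL10+ Treg. Its spleen arrays read -4.99, -2.13 and -4.08, far under every tumour array. The difference was 9.49 ± 0.65 (limma adjusted p = 6.14e-06) and 10.29 without spleen replicate 2, the single spleen array well above background. Bgn (biglycan) read 0.73, 2.33 and 1.57 in total tumour, 3.24, 2.74 and 2.67 in IL10-, 3.26, 2.88 and 3.55 in IL10+ and -6.30, -2.53 and -6.58 in spleen Treg. Here too spleen replicate 2 was the only spleen array well above background. The rise was 6.68 ± 0.90 (limma adjusted p = 0.000319) and 7.98 without that array. Lum (lumican) was undetected in spleen and at least 2.28-fold higher in total tumour (limma adjusted p = 0.0366), a call lost without any 1 of the 6 arrays compared (limma adjusted p from 0.0546 to 0.114) and with normexp (0.381).

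Of 10 glycoproteins and matricellular proteins, 8 rose (22.0% of all features), and 5 of the 10 were undetected on all spleen arrays. Fn1 (fibronectin, which links fibres to integrins) read 0.50, 1.32 and 0.72 in total tumour, 2.29, 1.16 and 1.06 in IL10-, 2.67, 1.58 and 1.85 in IL10+ and -3.68, -3.83 and -6.40 in spleen Treg. The tumour and spleen arrays did not overlap, and the difference between total tumour and spleen was 5.49 ± 0.67 (limma adjusted p = 0.000186). Sparc, a collagen-binding glycoprotein, read 4.37, 4.81 and 4.81 in total tumour, 6.26, 4.80 and 4.83 in IL10-, 6.35, 4.86 and 5.43 in IL10+ and -0.22, 0.79 and -2.91 in spleen Treg. It was well above background on every array, spleen included. Its rise was 5.44 ± 0.82 (limma adjusted p = 0.000623) and 6.23 without spleen replicate 2.

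Postn (periostin) and Thbs1 (thrombospondin 1, an activator of latent TGF-beta) were undetected on every spleen array. Postn read -0.55, -0.66 and -0.34 in total tumour, 0.67, -1.67 and -0.08 in IL10-, 0.92, -2.68 and 0.12 in IL10+ and -4.70, -5.95 and -6.40 in spleen Treg. Both VERT-X groups had their lowest value on replicate 2. Total tumour exceeded the detection limit by at least 11.6-fold (limma adjusted p = 0.00129). Thbs1 read -0.96, -0.25 and -1.81 in total tumour, 0.51, 0.16 and 0.34 in IL10-, 0.92, 0.10 and 1.10 in IL10+ and -6.28, -6.01 and -6.55 in spleen Treg. As with Col6a2, all VERT-X arrays lay above all total tumour arrays. Total tumour was at least 8.25-fold above spleen (limma adjusted p = 8.03e-06).

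Fbn1 (fibrillin 1, the core of microfibrils), Thbs2 and Tnc (tenascin C) were undetected in spleen and higher in total tumour by at least 31.1-fold, 20.8-fold and 5.35-fold (limma adjusted p = 6.72e-06, 9.46e-06 and 0.0132). The call for Tnc was lost without total tumour replicate 1 (limma adjusted p = 0.0518) and with slide as a block (0.0958). Fstl1, a secreted follistatin-like protein, rose by 5.94 ± 0.71 (limma adjusted p = 0.000155), or by 6.63 without spleen replicate 2. Ctgf (connective tissue growth factor) and Igfbp7 were well above background on all 12 arrays and were not called, at 1.06 (95% interval -0.35 to 2.48) and 0.15 (95% interval -1.77 to 2.07).

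Of the enzymes and the chaperone that mature collagen, 3 of 4 rose (22.0% of all features), and 3 of the 4 were undetected on all spleen arrays. Serpinh1 (HSP47), the chaperone of procollagen in the endoplasmic reticulum, read 3.42, 4.28 and 3.87 in total tumour, 4.91, 3.06 and 3.16 in IL10-, 5.29, 3.41 and 3.67 in IL10+ and -2.54, -1.68 and -3.66 in spleen Treg. It was detected on all 12 arrays, and the tumour and spleen arrays did not overlap. The difference between total tumour and spleen was 6.48 ± 0.67 (limma adjusted p = 6.48e-05). Loxl1 and Loxl2, lysyl oxidases that cross-link elastin and collagen, were undetected in spleen and at least 13.04-fold and at least 4.23-fold higher in total tumour (limma adjusted p = 2.29e-05 and 0.0197). The call for Loxl2 was lost without total tumour replicate 1 (limma adjusted p = 0.0574) or spleen replicate 3 (0.0703). Lox read -4.87, -3.98 and -4.75 in total tumour, -3.20, -6.03 and -3.59 in IL10-, -2.26, -6.40 and -2.67 in IL10+ and -6.31, -5.15 and -6.59 in spleen Treg. It was well above background on 4 tumour arrays and no spleen array, and its difference of 1.48 ± 1.07 was not called (limma adjusted p = 0.297).

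The proteases were mixed: 5 of 6 tested were called higher (22.0% of all features), and 2 of these 6 were undetected on all spleen arrays. A further 2, Mmp12 and Mmp13, were too dim to test. Mmp2 (gelatinase A, made by stromal cells) read 0.96, 1.37 and 1.07 in total tumour, 2.63, 0.89 and 1.22 in IL10-, 2.95, 1.79 and 1.87 in IL10+ and -5.61, -5.91 and -5.76 in spleen Treg. It was undetected on all spleen arrays and at least 36.3-fold higher in total tumour (limma adjusted p = 4.03e-06). Mmp9 (gelatinase B, made also by myeloid cells) was detected on all 12 arrays. It read 1.35, 2.08 and 1.81 in total tumour, 2.69, 2.27 and 1.504 in IL10-, 3.15, 3.04 and 2.42 in IL10+ and -0.42, -1.17 and -0.72 in spleen Treg. The rise was 2.52 ± 0.34 (limma adjusted p = 0.000337), a call lost with normexp (1.95, limma adjusted p = 0.0523).

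Mmp14 (MT1-MMP, which activates Mmp2 at the cell surface) rose by 3.74 ± 0.46 (limma adjusted p = 0.000196) and Htra1, a secreted serine protease, by 9.10 ± 0.73 (limma adjusted p = 1.46e-05), or by 9.99 without spleen replicate 2. Mmp3 (stromelysin 1) was undetected in spleen and at least 2.96-fold higher in total tumour (limma adjusted p = 0.0405). The call for Mmp3 was lost without 5 of the 6 arrays compared, 1 at a time (limma adjusted p from 0.0771 to 0.126), with normexp (0.241) and with slide as a block (0.0634). Fap (fibroblast activation protein) read -4.75, -3.99 and -4.54 in total tumour, -2.80, -4.66 and -4.87 in IL10-, -2.55, -4.65 and -4.66 in IL10+ and -4.36, -3.65 and -5.66 in spleen Treg. It was well above background on only 1 array of each group, the groups overlapped, and it was not called (0.13 ± 0.74; limma adjusted p = 0.906). Mmp13 read -4.78, -2.62 and -4.95 in total tumour, -4.36, -4.59 and -4.55 in IL10-, -5.77, -5.17 and -3.15 in IL10+ and -6.24, -5.92 and -6.49 in spleen Treg. With no filter it was not called (limma adjusted p = 0.0763), and neither was Mmp12 (0.826).

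An AP-1 motif, written TGANTCA and searched on both strands, is shown in the promoters of Mmp3, Mmp13 and Col6a1 because a called gene undetected in spleen, a gene too dim to test and the gene with the largest fitted difference all carry it. The stretches are the 200 bases before the RefSeq start (GRCm38.p6), 5′ to 3′ along the gene: chr9:7445622-7445821 (plus strand) for Mmp3, chr9:7272314-7272513 (plus strand) for Mmp13 and chr10:76726045-76726244 (minus strand) for Col6a1. Capitals mark the motif, which starts 46, 35 and 90 bases before the respective start.
Mmp3: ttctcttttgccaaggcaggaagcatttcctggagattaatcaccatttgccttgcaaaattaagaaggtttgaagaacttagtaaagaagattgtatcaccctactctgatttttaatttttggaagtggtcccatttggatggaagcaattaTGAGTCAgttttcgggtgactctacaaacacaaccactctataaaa
Mmp13: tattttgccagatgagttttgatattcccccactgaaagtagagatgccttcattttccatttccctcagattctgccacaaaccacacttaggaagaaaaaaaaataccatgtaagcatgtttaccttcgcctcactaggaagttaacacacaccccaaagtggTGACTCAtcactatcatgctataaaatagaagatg
Col6a1: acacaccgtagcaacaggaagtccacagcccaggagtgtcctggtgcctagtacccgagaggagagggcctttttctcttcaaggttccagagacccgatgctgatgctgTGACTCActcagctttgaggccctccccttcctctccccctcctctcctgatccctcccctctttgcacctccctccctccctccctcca
The motif was in the 250 bases before the start of 4 of the 32 genes with a promoter (12.5%), the fourth being Mmp12, and of 7.82% of all genes in the table. The match is a description, and the genes that hold it differ in level and in call.

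Protease inhibitors were called higher in 2 of 3 cases (22.0% of all features). Timp1 read 2.31, 1.19 and 1.66 in total tumour, 2.47, 0.41 and 0.84 in IL10-, 2.66, 0.64 and 1.74 in IL10+ and -3.43, -3.01 and -3.27 in spleen Treg. It was detected everywhere, without overlap between tumour and spleen arrays, and rose by 4.96 ± 0.59 in total tumour (limma adjusted p = 0.000159). Timp2, a cofactor in the activation of Mmp2, read 3.07, 3.67 and 3.49 in total tumour, 4.21, 2.78 and 3.14 in IL10-, 4.49, 3.45 and 3.23 in IL10+ and 2.21, 1.55 and 2.11 in spleen Treg. The rise of 1.46 ± 0.42 (limma adjusted p = 0.0186) was the smallest called in the list and was lost without spleen replicate 2 (1.25, limma adjusted p = 0.0660), total tumour replicate 2 or 3 (0.0644 and 0.0539), with normexp (0.425) and with slide as a block (0.0970). Timp3 was not called (1.60 ± 0.96; limma adjusted p = 0.207).

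By the probes used, the mesenchymal markers split. Pdgfra and Pdgfrb, growth factor receptors of fibroblasts and pericytes, were undetected on all spleen arrays and detected on all tumour arrays. Pdgfra read -0.59, -0.02 and -0.37 in total tumour, 0.45, -1.58 and -1.18 in IL10-, 1.20, -0.77 and -0.18 in IL10+ and -6.18, -5.46 and -6.50 in spleen Treg. Total tumour was at least 13.2-fold higher (limma adjusted p = 6.48e-05). Pdgfrb read 0.57, 1.07 and 0.43 in total tumour, 1.86, 0.05 and 0.01 in IL10-, 2.44, 0.41 and 0.51 in IL10+ and -5.30, -4.83 and -6.59 in spleen Treg. It was at least 26.8-fold higher in total tumour (limma adjusted p = 8.71e-05).

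Acta2, Tagln and Vcam1 did not follow them by the probes used. Another Vcam1 probe was called higher in total tumour (1.72, limma adjusted p = 0.0190). Another Acta2 probe rose by 2.62 without a call (limma adjusted p = 0.0538). Its mean level was -0.52 in total tumour and -3.14 in spleen Treg, against 7.63 and 7.58 for the probe used. It lies 10130 bases from the probe used, nearer the 3′ end of the gene. Why the 2 probes differ was not tested. Acta2 (smooth muscle actin) read 7.76, 7.52 and 7.60 in total tumour, 7.10, 7.63 and 7.34 in IL10-, 7.11, 7.18 and 7.02 in IL10+ and 7.48, 7.77 and 7.47 in spleen Treg. All 12 arrays lay within a narrow range, and the difference was 0.05 (95% interval -0.32 to 0.41), with its sign turned under quantile normalization, normexp and the authors' value table. Tagln (transgelin, an actin-binding protein of smooth muscle) read -1.32, -1.55 and 0.20 in total tumour, -0.87, -0.86 and -1.17 in IL10-, -0.95, -1.77 and -0.88 in IL10+ and -0.84, -0.48 and -0.87 in spleen Treg. The groups overlapped, with a difference of -0.16 (95% interval -1.09 to 0.77); with slide as a block it was called higher in total tumour (0.93, limma adjusted p = 0.0383). Vcam1, an adhesion molecule of stroma and endothelium, read 1.69, 2.96 and 2.45 in total tumour, 3.24, 1.99 and 2.22 in IL10-, 3.60, 2.48 and 2.93 in IL10+ and 3.12, 2.43 and 2.04 in spleen Treg, also with overlap. Its difference was -0.16 (95% interval -1.17 to 0.85).

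**Figure D2:**
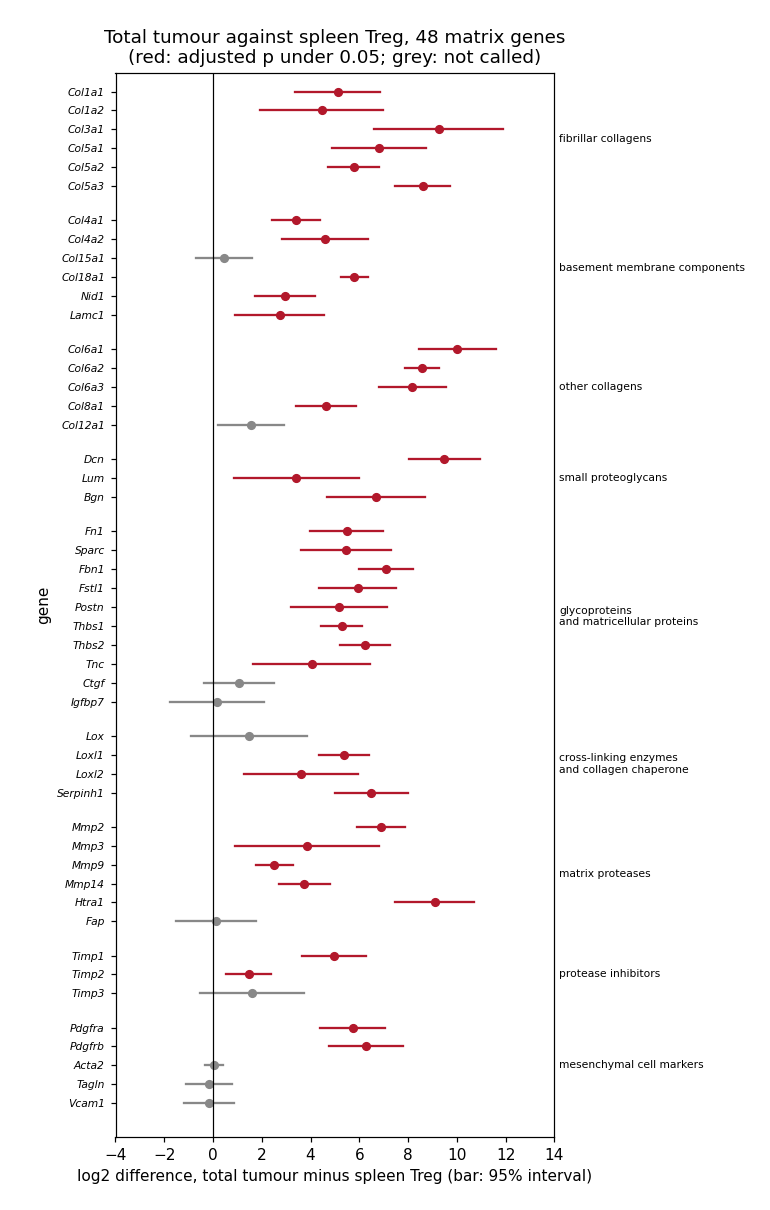
Log2 difference, total tumour minus spleen Treg, of the 48 tested matrix genes, grouped by role; points are estimates, bars 95% intervals, red marks genes called at an adjusted p under 0.05. The 38 called genes all lie to the right of 0, and the 10 grey ones include Acta2, Tagln, Vcam1, Fap and Lox. For the 18 genes undetected in spleen the estimate rests on background signal, and the folds at the detection limit in the text are the lower bounds.

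Probes of the same gene often disagreed in size. Of the 48 tested genes and the 2 below the filter, 30 had more than 1 probe, with 40 further probes, 23 of which passed the filter. Of 20 further probes of called genes, 13 were called higher, and 16 had a smaller difference than the probe used. Where a strand was given, the probe used lay nearest the 3′ end in 15 of 20 genes. Col3a1 was called by its other tested probe too, at 2.75 against 9.25, and so was Fn1 (5.35 against 5.49). The other probes of Dcn (1.44, limma adjusted p = 0.135), Col5a1 (1.19, 0.184), Col5a3 (1.07, 0.256), Col6a3 (0.15, 0.926) and Col8a1 (1.13, 0.314) were not called, nor were those of Thbs1 (1.82 and 0.67, limma adjusted p = 0.0694 and 0.244). Conversely, another Vcam1 probe was called higher in total tumour (1.72 ± 0.49; limma adjusted p = 0.0190), and another Acta2 probe differed by 2.62 ± 0.97 (limma adjusted p = 0.0538). Both Tagln probes gave differences near 0 (-0.16 and -0.09).

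The genes whose further probes went against the call are given here on each array, by the probe used. Col5a1 read 1.93, 2.77 and 2.44 in total tumour, 3.75, 2.16 and 2.44 in IL10-, 4.10, 2.62 and 3.07 in IL10+ and -3.94, -2.71 and -6.65 in spleen Treg. Col5a3 read 2.04, 2.94 and 2.58 in total tumour, 3.89, 2.31 and 2.68 in IL10-, 4.28, 2.89 and 2.71 in IL10+ and -6.16, -5.62 and -6.46 in spleen Treg. In both, tumour and spleen arrays were apart and replicate 1 led each VERT-X group. Col6a3 read 2.41, 2.98 and 2.71 in total tumour, 4.07, 2.23 and 2.64 in IL10-, 4.32, 3.07 and 2.87 in IL10+ and -5.79, -4.28 and -6.37 in spleen Treg. Col8a1 read 1.01, 0.85 and 1.31 in total tumour, 2.39, 1.02 and 0.93 in IL10-, 2.63, 0.77 and 0.98 in IL10+ and -4.25, -3.63 and -2.87 in spleen Treg. The same order of groups and of VERT-X arrays holds for Col6a3 and Col8a1.

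**Figure D3:**
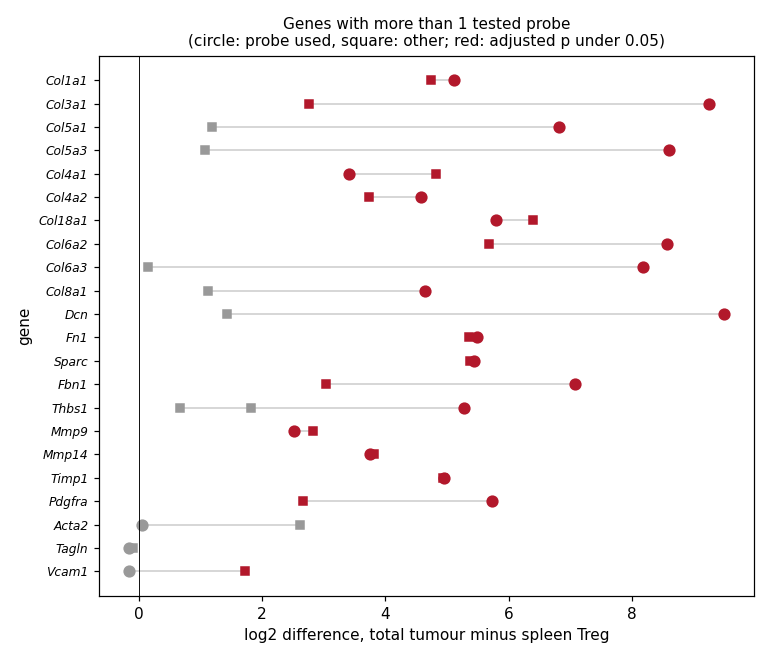
Log2 difference, total tumour minus spleen Treg, for each tested probe of the genes with more than 1 tested probe; circles are the probes used, squares the others, red marks an adjusted p under 0.05. The circles of Dcn, Col5a3 and Col6a3 lie far to the right of grey squares near 0, whereas the Fn1, Sparc, Mmp14 and Timp1 marks coincide nearly.

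Between the IL10 fractions of the same reporter strain, the comparison the series title names, no matrix gene was called. All 48 missed the threshold in limma, where 0.0515% of all features (8 of 15544) were called in either direction; at an unadjusted p under 0.05 there was 1 of the 48, Col18a1, against 720 of all features. Col18a1 was higher in IL10+ Treg by 0.59 (95% interval 0.04 to 1.14). Mmp9 differed by 0.72 (95% interval -0.05 to 1.48), Col4a1 by 0.69 (95% interval -0.28 to 1.66) and Pdgfra by 0.85 (95% interval -0.47 to 2.17). The largest differences were those of Mmp3 at 1.97 (95% interval -1.003 to 4.94) and Loxl2 at -0.80, and for no gene did all arrays of 1 group lie above all arrays of the other. Set against the IL10- array of equal replicate number, the IL10+ array was the higher all 3 times for 30 of the 48 genes (62.5%) and the lower all 3 times for 1, against 14.8% and 21.5% of all features. The main fit does not use these numbers. With replicate number as a block in the VERT-X arrays alone, 18 of the 48 had an unadjusted p under 0.05, against 1547 of all features. In that fit, added after seeing the data, 0 were called. The median over the 48 was 0.37 and 39 were positive, against a median of -0.04 over all features. This median turned to -0.21 with normexp, -0.20 with slide as a block and -0.02 without IL10+ replicate 1, and was 0.81 without IL10- replicate 1. Within slide 3, which held all IL10- arrays and IL10+ replicate 2, the median was -0.20 and 16 of 48 were positive. The median SE of a difference was 0.64, so the intervals of single genes leave room for differences above 1 on the log2 scale.

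Against total tumour Treg, which differ from the VERT-X fractions in reporter strain and gate as well, Col6a2 was the single call. It was 2.08 ± 0.32 higher in IL10+ Treg (limma adjusted p = 0.0425), where 0.0708% of all features were called higher. The call was lost in 15 of 23 alternatives, among them normexp (0.92, limma adjusted p = 0.257), the mean of all its probes (1.29, 0.0967), slide as a block (1.55, 0.426) and without total tumour replicate 1 (1.83, 0.241). Within slide 1, which held IL10+ replicate 1 and total tumour replicates 1 and 2, the difference was 1.55. In IL10- Treg the gene was 1.78 ± 0.32 higher and just missed the threshold (limma adjusted p = 0.0509), where 0.148% of all features were called and 0 of the 48 matrix genes. At an unadjusted p under 0.05 there were 8 of the 48 in IL10+ (2612 of all 15544 features) and 2 in IL10- Treg (2415 of all features). The count is near the share of all features in IL10+ and under it in IL10- Treg, and so shows no excess among these genes. Thbs1 came next in both, at 1.71 ± 0.38 in IL10+ (limma adjusted p = 0.0952) and 1.34 ± 0.38 in IL10- Treg (limma adjusted p = 0.146). Acta2 was lower in IL10+ than in total tumour Treg by 0.52 without reaching the threshold (limma adjusted p = 0.169). Medians over the 48 were 0.49 in the IL10+ and 0.26 in the IL10- comparison, or 1.53 and 1.73 with slide as a block.

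The VERT-X fractions differed from spleen as total tumour did, but these comparisons share the spleen arrays, so they are not independent. In IL10+ Treg 38 matrix genes were called higher (23.9% of all features) and 1 lower (26.9%). The lower one was Acta2, at -0.47 (limma adjusted p = 0.0348), a difference that turned to 0.48 when all its probes were averaged. In IL10- Treg 39 were called higher and 0 lower (24.3% and 24.7% of all features). The genes called were not all those of total tumour. Lum was not called in IL10+ Treg (limma adjusted p = 0.0809), nor Mmp3 in IL10- Treg (limma adjusted p = 0.185). Timp3 was called higher in IL10- Treg (2.73, limma adjusted p = 0.0371). Medians were 5.18 and 5.20, or 4.77 and 4.43 with undetected genes at their bound. Col12a1 was called in both fractions, but it was tested through the tumour arrays alone and was well above background on 1 of 3 IL10+ and 2 of 3 IL10- arrays. Its IL10+ mean lies under the detection limit, so no fold is given there, and in IL10- Treg the fold was at least 1.02. With slide as a block the IL10- count was 24, and the shares above are those of the main fit.

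**Figure D4:**
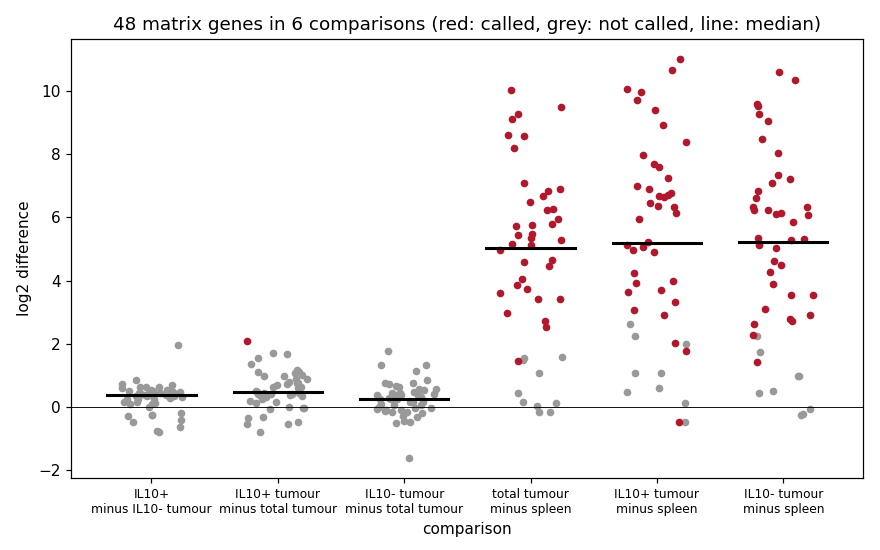
Log2 difference of each of the 48 matrix genes in the 6 comparisons; points are genes, red if called, and black lines are medians. The 3 comparisons between tumour groups centre at 0.37, 0.49 and 0.26 with 1 red point, Col6a2, while the 3 comparisons with spleen centre at 5.04, 5.18 and 5.20.

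Among the tumour arrays, most matrix genes were highest on the same 2 arrays. Replicate 1 of both VERT-X groups gave the 2 highest of 9 tumour values for 32 of the 48 genes (66.7%), among them 29 of the 38 that rose, whereas 17.03% of all features had that order. The median level of the 48 genes was 2.34 and 2.64 on these arrays and between 0.86 and 1.84 on the other 7. The genes without this order include Col4a1, Col4a2, Col6a2, Bgn, Thbs1, Mmp9 and Acta2. The summed T cell and Treg markers were lowest of the tumour arrays there, at 9.49 and 9.16, against 9.60 to 10.09, and the summed macrophage markers were at 8.68 and 9.15, inside the range of the others (8.498 to 9.75). Lymphoid stroma markers had their 2 highest sums of the tumour arrays there, at 0.73 and 0.45 (others -0.26 to 0.26). Pericyte and smooth muscle markers summed to 2.35 and 2.87, inside the range of the others (1.46 to 2.92), while the median of their deviations from the gene's mean over the tumour arrays was the highest there, at 0.56 and 0.39 (others -1.20 to 0.13). Epithelial and B cell markers had their 2 lowest sums there. The part of other cells in this order was not tested. These arrays lie on different slides.

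The spleen arrays also differed among themselves. Replicate 2 was the highest of the 3 for 33 of the 48 genes (68.8%), against 47.4% of all features, by a median of 0.65 over the mean of the others (0.07 over all features). On that array alone 8 of the genes were well above background, among them Col1a1, Col3a1, Col6a1, Dcn, Bgn and Htra1. Of the 48, 16 were detected on all 3 spleen arrays.

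**Figure D5:**
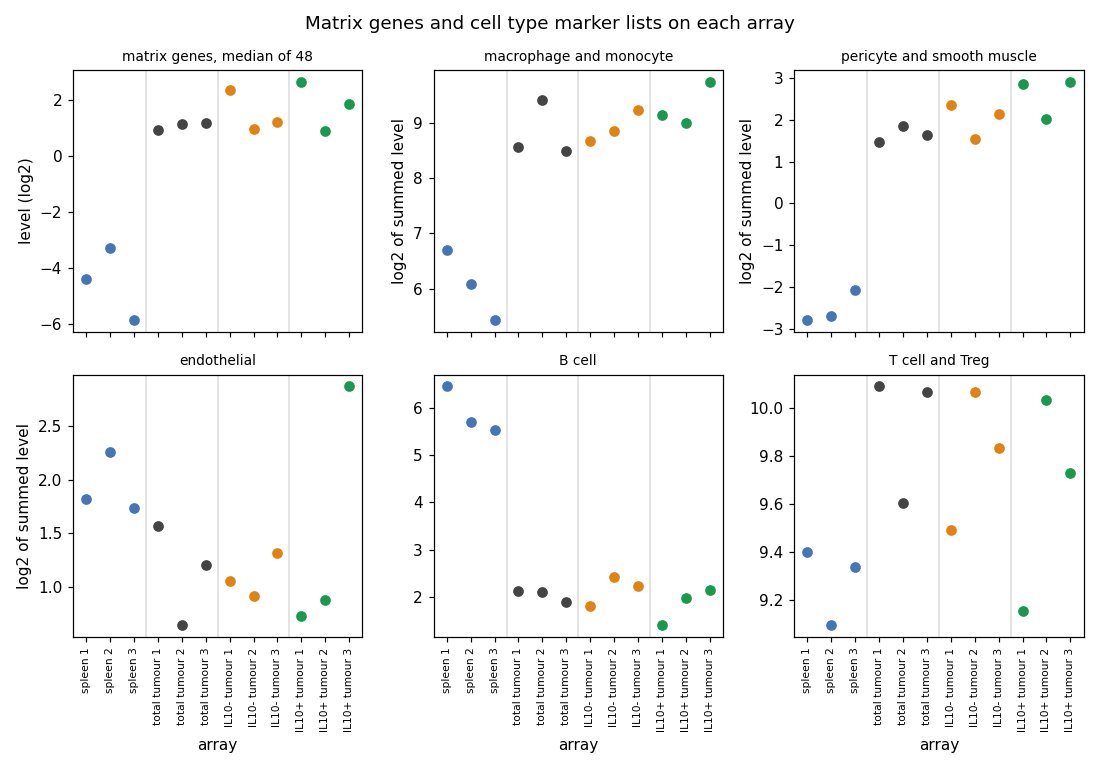
Median level of the 48 matrix genes and log2 of the summed level of 5 marker lists on each of the 12 arrays (horizontal axis; colours are groups). Matrix genes, macrophage markers and pericyte markers are lower on the 3 spleen arrays than on any tumour array, B cell markers are higher there, and replicate 1 of both VERT-X groups is high for matrix genes and low for T cell markers.

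Other matrix genes were read from 4 lists of pathway genes. Of 18 tested collagen biosynthesis enzymes, 17 rose in total tumour (94.4%, against 22.0% of all features) and 0 fell. Plod2 (a lysyl hydroxylase) and P3h3 (a prolyl 3-hydroxylase family member) were undetected in spleen and at least 14.1-fold and 32.6-fold higher (limma adjusted p = 2.42e-07 and 1.57e-05). Plod2 was also higher in IL10+ than in total tumour Treg, by 1.36 ± 0.19 (limma adjusted p = 0.0294). Of 33 other glycoproteins and proteoglycans 21 rose (63.6%) and 0 fell, with Efemp2 (fibulin 4) at 5.64 ± 0.37 and Ltbp3 (a latent TGF-beta binding protein) at least 40.2-fold higher (limma adjusted p = 5.07e-06 and 4.09e-06).

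Of 15 tested collagens outside the list 3 rose and 3 fell, 20% each way, which is near the background of 22.0% and 20.3% and so no result about these genes. Among those that rose, the smallest p were those of Col7a1 (3.48 ± 0.44, the anchoring fibril collagen; limma adjusted p = 0.000213) and Col16a1 (6.21 ± 0.86; 0.000380). Col11a2 fell by 3.09 (limma adjusted p = 4.89e-06), and Col20a1 was undetected in total tumour and at least 3.98-fold higher in spleen (0.000932). Of 17 other proteases and inhibitors 6 rose (35.3%) and 1 fell: Plau (urokinase) and Adamts1 were at least 5.62-fold and 4.72-fold higher (limma adjusted p = 4.51e-06 and 0.000246), and Reck, a membrane inhibitor of metalloproteinases, fell by 1.08 (0.0130). Between the IL10 fractions 0 genes of these lists were called. Over the 83 tested genes of the 4 lists, 47 were called higher and 4 lower in total tumour with the main settings, against 24 and 0 with normexp. Over all features, 3417 were called higher with the main settings and 1050 with normexp.

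Markers of other cells moved beside the matrix genes. The share that such cells have in the differences was not tested. All marker counts below stand against 22.0% of all features called higher and 20.3% called lower in total tumour. Of 12 macrophage and monocyte markers 11 were higher in total tumour than spleen, with a summed level of 8.498 to 9.42 against 5.43 to 6.71, and the brightest, Apoe and Lyz2, rose by 3.03 ± 0.39 and 4.001 ± 0.62 (limma adjusted p = 0.000223 and 0.000714). Trem2 was undetected in spleen. Of 5 tested pericyte and smooth muscle markers 2 were higher, Cspg4 (6.01 ± 0.45) and Mcam (3.11 ± 0.80), with summed levels of 1.46 to 1.85 against -2.80 to -2.08; Cnn1 was undetected on every array of the 4 groups and Des on every array of 3 of them. Of 6 B cell markers 6 were lower in total tumour, with summed levels of 1.88 to 2.13 against 5.53 to 6.46, and the brightest, Cd79b and Blnk, fell by 3.75 and 2.21.

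Endothelial markers did not move one way: of 8 tested, Emcn was higher and Pecam1 lower (by 1.56), with Eng not called. Emcn was undetected in spleen and at least 3.90-fold higher in total tumour. Summed levels were 0.64 to 1.57 in total tumour and 1.73 to 2.25 in spleen Treg. Tek and Kdr were undetected in some groups. Of 3 tested epithelial markers 2 were called higher, Krt18 (2.36 ± 0.74) and Cdh1, while Epcam was not (0.80 ± 0.60). Cdh1 was undetected in spleen and at least 1.24-fold higher. Summed levels of the epithelial markers were 1.14 to 1.72 against -1.29 to 1.02. Of 4 lymphoid stroma markers Pdpn, undetected in spleen, was called higher (at least 3.45-fold) and Tnfsf11 was not. Their summed levels were -0.18 to 0.04 against -0.62 to 0.06. Neutrophil markers gave 0 calls of 4 tested, with S100a9 at 0.25 ± 1.96 and Csf3r at 1.97 ± 0.74, and summed levels of -0.91 to 0.30 against -2.57 to 1.23. Of the T cell and Treg markers 3 of 12 were higher in total tumour, Ctla4, Tnfrsf18 and Tnfrsf4, and 0 lower. The share called higher is near the 22.0% of all features and so no result about these markers.

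Slides and groups overlapped only in part. Spleen arrays lay on 1 slide with total tumour replicate 3, and within that slide the median difference of the 48 matrix genes was 4.94, with 47 positive. With slide as a block 35 genes were called higher in total tumour. Over all features 1876 were called higher with that block, against 3417 in the main fit.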

How the data were processed

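The data are 12 one-colour Agilent arrays of RNA from sorted mouse Treg, 3 for each of 4 groups, with replicate numbers from the labels. Per the file headers, each scanner file holds the deposited spot intensity made with Agilent Feature Extraction 9.5.3.1, the processed intensity being background-subtracted and not normalized between arrays, with probes annotated on mm8 (NCBI build 36). Flags in the deposited files, per the file headers, mark spots that are outliers, saturated or well above background; outlier spots and control spots were left out. A deposited value table of the same arrays, on a log10 scale by comparison with the scanner values, served as an alternative; its normalization is not stated there. Per the labels the cRNA was labelled with biotin, while the headers describe a scan in 1 channel.

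From the deposited intensity, log2 was taken, 43379 spots were averaged to 41174 probes, and the 75th percentile of each array was subtracted. Probes were named through RefSeq (GRCm38.p6) accessions and symbols, otherwise by the files. Each gene is represented by its brightest probe (mean of all arrays); 15544 features well above background on at least 3 arrays were tested. All 12 arrays were fitted with limma 3.58.1 (lmFit, eBayes, two-sided; R 4.3.3), with Benjamini-Hochberg adjustment within each of 6 contrasts, and the steps were tested on simulated data. The number of arrays limits the precision. A fold marked "at least" sets the brighter group's mean against, per array, the dimmest of the probes that are well above background or the probe's own signal, whichever is higher, for genes not well above background on any array of the dimmer group. A summed marker level is log2 of the sum of its genes' linear levels. Values on each array are given for the genes of a written rule (leading members of each role, members called between tumour groups or lower in tumour, members whose probes disagree); of pathway lists, the called genes with the smallest p in each direction; of marker lists, the brightest. Other genes of these lists that are named were chosen after their values were seen. The members and lists were chosen with earlier results of these data known. Alternatives were other background correction, scaling, filters and probe rules, the value table, slide and replicate number as blocks (the latter also in the VERT-X arrays alone, added after seeing the data), only the groups compared, array weights, and leaving out each array. Figures were drawn with matplotlib 3.10.9.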

Additional observations from a re-analysis of the deposited data

How the results depend on the processing

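The direction of all 38 genes called higher in total tumour held in each of 23 alternatives, and 31 of them were called in every one where they were tested; Lamc1, Lum, Tnc, Loxl2, Mmp3, Mmp9 and Timp2 lost the call in some. The count of 38 ranged from 33 to 39 when 1 array was left out and from 33 (normexp) to 41 (array weights) otherwise. Over all features the number called higher was 3417 in the main fit and 2701 to 3692 when 1 array was left out. It was 1050 with normexp and 4807 with array weights. Normexp background correction lowered the median from 5.04 to 2.28 against spleen in total tumour, to 2.76 in IL10+ and 2.85 in IL10- Treg, and the pathway count from 51 (47 higher, 4 lower) to 24, all higher. Over all features, calls in either direction in total tumour fell from 6571 to 1863 with normexp. With slide as a block the medians against total tumour were 1.53 (IL10+) and 1.73 (IL10-), those against spleen 6.68 and 7.24, and the IL10- count against spleen was 24. With no filter the median over all features moved to -0.32 in total tumour against spleen and to 0.28 in IL10+ against total tumour.

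The single gene called between IL10+ and total tumour, Col6a2, gave a count of 0 with normexp, no filter, the mean of all probes, slide as a block, the replicate block and only the groups compared, and a count of 0 to 1 when 1 array was left out. The count of 0 for IL10- against total tumour became 1 with the stricter filter, 2 with array weights, and 0 to 1 when 1 array was left out. The count of 0 between the IL10 fractions held throughout; the cause of the other changes was not tested. Same-numbered IL10- and IL10+ arrays correlated in their deviations from the group means at 0.41, 0.43 and -0.24, so the replicate numbers were not taken as pairs in the main fit. In a fit of the 6 VERT-X arrays alone with the replicate block, an alternative added after seeing the data, 0 of the 48 genes were called (smallest limma adjusted p = 0.446) and 18 had an unadjusted p under 0.05, against 0 and 1547 of all 15544 features. In all 12 arrays, with the replicate block 39 members were called in total tumour against spleen, all higher, where 3339 of all features were called higher.

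Among genes not called, the sign of the difference in total tumour turned for Igfbp7 (-0.044 with normexp, -0.81 to 0.72 without 1 array), Fap (-0.42 to 0.58 without 1 array), Acta2 (-0.0256 with quantile normalization, -0.17 with normexp, -0.35 with the authors' value table, -0.017 to 0.15 without 1 array), Tagln (0.93 with slide as a block, 0.0055 with array weights, -0.71 to 0.17 without 1 array) and Vcam1 (0.78 with the mean of all probes, -0.46 to 0.18 without 1 array). Acta2 in IL10+ against spleen turned to 0.48 with the mean of all probes. Signal close to background limits the 18 genes undetected in spleen, for which only bounds hold.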
